A study of Rattus norvegicus with 16 samples.

Results

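Cultured rat pituitary cells that carry the label of isolated corticotropes were compared after 24 h with corticotropin-releasing hormone (CRH) and after 24 h with interleukin-6 (IL-6). The main comparison holds 8 of the 16 arrays of the series, the 4 titled as CRH administration and the 4 titled as IL-6 administration. It tests none of the 4 control arrays and none of the 4 arrays titled as 24 h after eNampt administration. Those arrays entered the choice of probe sets and some alternative fits. Genes were all those with a single gene symbol, each read from its probe set with the highest mean over the 16 arrays, which gave 14557 genes on 36685 probe sets. The cells were from pituitaries of Wistar rats aged 21 days, were taken from culture on beads with an antibody against the CRH receptor CRHR1, and were grown in serum-containing medium with added fibroblast growth factor. The CRH and IL-6 arrays share all of these conditions, carry no genetic change that the labels mention, and differ by ligand in the labels. The beads select for CRHR1, so the cells are a selected culture and not a cell line. The sources used here give neither the ligand doses nor whether replicate arrays stand for separate animals or cultures, so p-values and intervals measure only how far these samples spread, which can be technical.

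CRH is the hypothalamic peptide that drives corticotropes to make and release ACTH. It binds CRHR1, raises cyclic AMP and activates protein kinase A, which acts on CREB and on the NR4A nuclear receptors that bind the Pomc gene. IL-6 is an inflammatory cytokine that binds IL6R and the shared subunit gp130 and activates JAK kinases and the transcription factor STAT3. Both routes are known to reach Pomc, which encodes the ACTH precursor, so the comparison asks which transcripts tell the 2 ligands apart after a day.

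In these arrays no transcript passed the test over all genes for a difference between the ligands. This does not show that few transcripts differ, since the intervals of many genes were wide. Levels are log2 values made by RMA, in which a difference of 1 is 2-fold, and differences are given as CRH minus IL-6. With limma, 0 of 14557 genes (0%) differed at an adjusted p under 0.05. The smallest adjusted p in limma was 0.119, for Ppp1r21, and the next was 0.998. At an unadjusted p under 0.05 limma gave 272 genes (1.87%) higher after CRH and 244 (1.68%) higher after IL-6. Together these were 516 genes or 3.54%, under the 5% that the threshold passes where no gene differs. The share depended on level, at 1.49% of the 6108 genes with a mean under 2 and 5.80% of the 5207 at 3 or more. By level bin the share passed 5% only at middle levels, at 6.97% for 3 to 4, 6.74% for 4 to 5 and 5.26% for 5 to 6. For the brightest genes it was lower again, at 3.23% for 6 to 7, 3.16% for 7 to 8 and 2.47% at 8 or more. The groups did not overlap for 337 genes (2.32%), 193 (1.33%) of them higher after CRH and 144 (0.989%) higher after IL-6. Leaving out CRH array 1 or IL-6 array 1 raised the number of genes higher after IL-6 at an unadjusted p under 0.05 from 244 to 369 and 440. The number of genes higher after CRH went from 272 to 526 without CRH arrays 3 and 4.

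The median correlation of an array with the other 7 was lowest for CRH array 4, at 0.865. It was 0.896 for CRH array 3 and 0.898 for IL-6 array 2, and 0.911 to 0.938 for the other 5. Genes on which 1 array lay far from the other 3 of its group, among those with a mean of 3 or more, numbered 127 and 129 on CRH arrays 3 and 4, 122 and 115 on IL-6 arrays 1 and 2, and 32 to 59 on the other 4. Of the 12 measured corticotrope identity genes, 6 had a mean of 3 or more, Pomc among them. Tbx19, which encodes the corticotrope lineage factor TPIT, had group means of 1.53 and 1.61, and Neurod1, an early corticotrope factor named after its values were seen, of 1.39 and 1.42, both below the array medians of 1.86 to 2.02. The lactotrope hormone gene Prl lay between 10.12 and 11.06 on the 8 arrays. Cga, which encodes the glycoprotein hormone alpha subunit of thyrotropes and gonadotropes, lay between 6.92 and 8.74, and Tagln, an actin-binding protein gene of mural cells and fibroblasts, between 10.2 and 10.4. In bulk samples such as these, fewer cells of a type and less RNA per cell cannot be told apart.

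Pomc was 8.47, 8.21, 8.73 and 8.38 on CRH arrays 1 to 4 and 7.99, 8.19, 8.31 and 8.24 on IL-6 arrays 1 to 4. The groups overlapped, with CRH array 2 below IL-6 arrays 3 and 4. The difference was 0.26 ± 0.16 (SE, n = 4 per group), or 1.20-fold, and its 95% interval, like all intervals given here not adjusted for the number of genes, ran from -0.10 to 0.63. That interval includes 0 and lies within 2-fold. Without CRH array 3 the difference was 0.17, and without CRH arrays 3 and 4 or after repeated quantile normalization 0.16. Prl, which is not a corticotrope gene, had a difference of nearly the same size, 0.31 ± 0.195 (SE). Its levels were 10.93, 10.81, 10.98 and 11.06 after CRH and 10.12, 10.91, 10.72 and 10.80 after IL-6, so that IL-6 array 1 was the lowest for both hormone genes. The difference of Prl was 0.14 without that array.

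The promoter of Pomc is printed here because both pathways end on this gene, beside that of Scg2, a granin gene of secretory granules whose window held a full cAMP response element. The sequences are the 250 bases before the annotated start, from RefSeq (GRCr8), on the gene's strand, for Pomc at chr6:32659103-32659352 on the plus strand and Scg2 at chr9:88256867-88257116 on the minus strand. Capitals mark matches to TGACGTCA, the cAMP response element, or to TTCNNNGAA, the STAT element.
Pomc: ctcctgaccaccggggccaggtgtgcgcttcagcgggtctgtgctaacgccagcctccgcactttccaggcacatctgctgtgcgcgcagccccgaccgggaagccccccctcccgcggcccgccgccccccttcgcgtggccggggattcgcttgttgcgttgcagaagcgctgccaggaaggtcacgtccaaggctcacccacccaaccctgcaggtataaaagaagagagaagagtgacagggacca
Scg2: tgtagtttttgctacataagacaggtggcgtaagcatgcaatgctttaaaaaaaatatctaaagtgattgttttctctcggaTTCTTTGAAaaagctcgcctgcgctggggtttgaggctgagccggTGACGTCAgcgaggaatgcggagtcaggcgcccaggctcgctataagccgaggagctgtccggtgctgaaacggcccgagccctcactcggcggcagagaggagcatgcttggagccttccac
In the 300-base window of Pomc (250 bases before to 50 after the start) neither motif had an exact match on either strand. The same held for AAAGGTCA, the element of NR4A monomers. Sites with a mismatch and sites outside the window were not searched, so the Pomc promoter may still hold such elements. Scg2, with both motifs, was 8.27, 7.90, 7.80 and 8.16 after CRH and 8.04, 8.01, 8.05 and 8.11 after IL-6. Every IL-6 array lay within the range of the CRH arrays. Its difference was -0.02 ± 0.15 (SE) with an interval from -0.37 to 0.32.

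Among the NR4A receptors, Nr4a2 (NURR1) was 5.97, 5.54, 6.04 and 5.48 after CRH and 4.93, 5.29, 5.72 and 5.27 after IL-6. Only IL-6 array 3 reached into the range of the CRH arrays. The difference was 0.45 ± 0.219 (SE), the largest moderated t on the CRH side among the measured CRH and cAMP-responsive genes, with an interval from -0.05 to 0.96. It stayed between 0.33 and 0.59 in the alternatives tried. Nr4a1, the gene of the related receptor NUR77, was 4.88, 6.13, 5.81 and 2.44 after CRH and 3.39, 5.31, 5.21 and 5.52 after IL-6. Its 2 low arrays, CRH array 4 and IL-6 array 1, set its mean. The difference was -0.04 ± 0.836 (SE), and it was 0.75 without CRH array 4 and -0.53 without IL-6 array 1.

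Of the CRH and cAMP-responsive genes 29 of 37 were measured. Among them 20 had a higher mean after CRH and 9 after IL-6, with a median difference of 0.11, beside 0.03 and 7988 of 14557 genes (54.9%) higher after CRH over all genes. At an unadjusted p under 0.05 there were 0 members higher after CRH and 1 higher after IL-6 (1.87% and 1.68% of all genes), Crtc1, a coactivator of CREB. Crtc1 was 6.15, 4.65, 3.74 and 3.83 after CRH and 6.25, 5.73, 6.17 and 5.58 after IL-6. CRH array 1 was as high as the IL-6 arrays, and without CRH arrays 3 and 4 the difference of -1.34 ± 0.51 (SE) became -0.53. The immediate early genes Fos and Egr1 and the clock gene Per1, all inducible by cyclic AMP and named after their values were seen, had differences of -0.05, -0.20 and 0.44. The intervals were -0.64 to 0.54 for Fos, -0.58 to 0.17 for Egr1 and -0.50 to 1.37 for Per1. Crem, the gene of a cyclic AMP-induced repressor, and Crhr1 itself were not analysed here, since no single-symbol probe set carried their names.

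**Figure D1:**
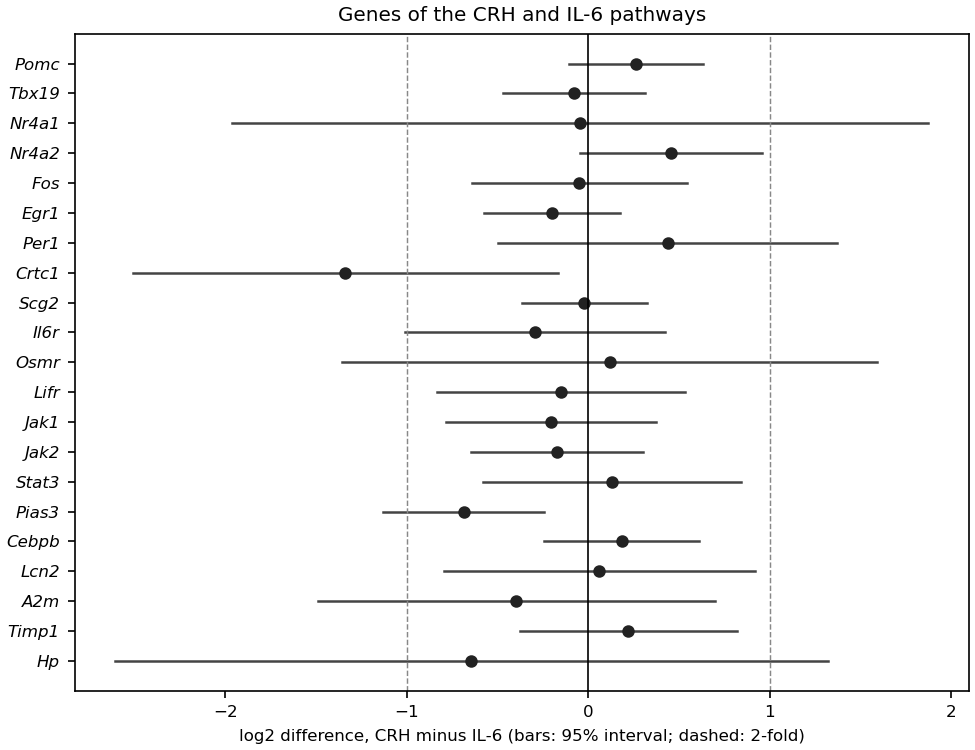
Log2 differences, CRH minus IL-6 (x axis), of 21 genes of the CRH and IL-6 pathways. Points are differences of means of 4 arrays per group, bars are 95% intervals of limma's fit and dashed lines mark 2-fold. Among the genes shown, only Crtc1 and Pias3 have intervals clear of 0, and the intervals of Nr4a1, Osmr and Hp pass 2-fold on both sides. Crtc1 and Pias3 are shown as the extreme t of their lists. Most of the genes shown were added after their values were seen, namely Fos, Egr1, Per1, Scg2, Osmr, Lifr, Jak1, Jak2, Cebpb, Timp1 and Hp. Tyk2, also at an unadjusted p under 0.05 in limma, is not shown, so the figure is a selection from the pathways.

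On the IL-6 side, Stat3, the transcription factor of the pathway and a known target of itself, was 5.79, 6.27, 6.73 and 6.98 after CRH and 6.04, 6.31, 6.002 and 6.91 after IL-6. The groups covered the same range, and the difference was 0.13 ± 0.31 (SE) with an interval from -0.58 to 0.84. The receptor gene Il6r was 2.56, 2.50, 2.39 and 2.83 after CRH and 3.16, 2.50, 2.17 and 3.62 after IL-6, with a difference of -0.29 ± 0.312 (SE) that was -0.19, -0.52 and -0.041 without IL-6 arrays 1, 3 and 4. Il6st, which encodes gp130, and the feedback inhibitor gene Socs3 had no single-symbol probe set and were not analysed here. The kinase gene Jak1 and the oncostatin M receptor gene Osmr, named like Hp and Scg2 after their values were seen, had differences of -0.20 and 0.12. Osmr was 4.02 on CRH array 4, against 6.13 to 7.41 on the other 3 CRH arrays and 5.72 to 6.28 after IL-6, and its difference was 0.80 without that array.

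The acute-phase genes did not separate the groups either. Lcn2, which encodes a siderophore-binding lipocalin, was 7.21, 6.70, 5.69 and 6.74 after CRH and 6.07, 6.08, 7.08 and 6.87 after IL-6. Its difference was 0.06 ± 0.373 (SE), with a sign that turned in 4 alternatives. A2m, the gene of the protease inhibitor alpha-2-macroglobulin and a classic IL-6 target in rat liver, was 6.02, 6.52, 5.33 and 7.76 after CRH and 6.51, 7.15, 6.49 and 7.07 after IL-6. CRH arrays 3 and 4 held its lowest and highest values, and the difference of -0.40 ± 0.477 (SE) was -0.038 without array 3 and -0.85 without array 4. Hp, the haptoglobin gene, was bright on IL-6 array 1 alone, at 5.65 against 1.57 to 2.01 on the other IL-6 arrays and 1.50 to 2.36 after CRH. The difference of Hp was -0.64 with that array and 0.32 without it.

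The IL-6 and JAK-STAT3 list had 31 of 44 genes measured, 14 with a higher mean after CRH and 17 after IL-6, and a median difference of -0.02. At an unadjusted p under 0.05 it held 0 genes higher after CRH and 2 higher after IL-6, beside 1.87% and 1.68% of all genes. The one with the larger moderated t was Pias3, an inhibitor of STAT3. Pias3 was 2.49, 2.86, 2.84 and 2.64 after CRH and 3.58, 3.72, 3.03 and 3.26 after IL-6. Its groups did not overlap, and the difference was -0.69 ± 0.193 (SE) with an interval from -1.13 to -0.24. The other, named after its value was seen, was the Janus kinase gene Tyk2 at -0.62. For 17 of the 31 members the interval lay within 2-fold in both directions, and 15 of the 31 had a mean of 3 or more. Over all genes such an interval was found for 94.5% with a mean under 2 and 28.0% at 3 or more. A narrow interval can therefore go with a low level, and the 17 do not show that the pathway was alike.

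The gene nearest to the threshold was Ppp1r21, which encodes a subunit of an endosomal adaptor complex that carries mRNA and ribosomes. It was 1.89, 2.15, 1.11 and 1.78 on the CRH arrays and 4.19, 4.08, 4.60 and 3.94 on the IL-6 arrays. The gap between the groups was wide, but the CRH levels lay near or below the array medians (1.86 to 2.02), and a fold against so dim a level is uncertain. The level was 5.55-fold higher after IL-6, with a difference of -2.47 ± 0.253 (SE) and an adjusted p of 0.119 in limma. It lay between -2.61 and -2.19 in the alternatives, in which limma's adjusted p for this gene ranged from 0.0939 to 1.00. Gtf2h3, a TFIIH subunit gene, and Csrnp1, a gene of a nuclear protein inducible by growth signals, were next in the order of the test, and are named after their values were seen. Gtf2h3 was 1.95 to 2.28 after CRH and 3.14 to 4.14 after IL-6, and Csrnp1 was 1.93 to 2.30 and 2.92 to 3.25. Neither pair of ranges overlapped, and all 3 of these genes were higher after IL-6.

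Ranked by moderated t among genes with a mean of 3 or more, the first 12 on each side were named by rule, so their separation is a matter of choice and not a result. On the CRH side these were, in order, Efnb1, Adi1, Fzd4, Tmem109, Taf9, Psmc6, C2cd2, Mplkip, Arhgdib, Tshz1, Gtse1 and Ube2v2. Efnb1 encodes ephrin-B1, a membrane ligand of Eph receptors, and was 4.28, 5.01, 5.05 and 4.56 after CRH and 2.85, 3.71, 3.73 and 3.44 after IL-6, a difference of 1.30 ± 0.263 (SE). Fzd4, a Frizzled receptor of Wnt and Norrin, was 5.47, 5.21, 5.44 and 5.65 after CRH and 4.75, 4.15, 4.73 and 4.56 after IL-6. Its difference of 0.89 ± 0.183 (SE) had the smallest SE of the 12. Tmem109, which encodes a membrane protein of the endoplasmic reticulum and nucleus, was 6.08 to 6.68 after CRH and 3.73 to 5.50 after IL-6, a difference of 1.83 ± 0.378 (SE).

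Further down the order, Psmc6, an ATPase subunit gene of the regulatory particle of the proteasome, was 6.06, 6.14, 5.56 and 6.15 after CRH and 5.07, 3.86, 3.88 and 5.09 after IL-6 (difference 1.50 ± 0.341 SE). Ube2v2, a cofactor gene of ubiquitin conjugation, had a difference of 1.16 and Taf9, a subunit gene of TFIID, of 1.55. Arhgdib, a gene whose transcript is abundant in leukocytes, was 6.77, 6.31, 4.48 and 5.69 after CRH and 3.01, 4.06, 3.94 and 4.17 after IL-6. Its difference of 2.02 ± 0.493 (SE) was, with that of the adenosine kinase gene Adk (2.02 ± 0.557), the largest on the CRH side at any level. Of 16 measured leukocyte markers 3 had a mean of 3 or more. The brightest, Cd74, which encodes the invariant chain of MHC class II, was 6.66, 4.69, 4.93 and 2.95 after CRH and 5.23, 3.95, 4.55 and 4.80 after IL-6, highest, like Arhgdib, on CRH array 1. Ptprc, which encodes CD45, lay at 1.32 to 1.76 on the 8 arrays. The part of leukocytes in the difference of Arhgdib was not tested.

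On the IL-6 side the 12 genes were C2cd3, Vps33b, Cdc42bpb, Actn2, Ppp1r15b, Gpn3, Lpgat1, Map3k12, Supt16h, Gpkow, Rabgap1 and Rnf34. C2cd3, a centriole gene needed for cilia, was 4.09, 4.19, 3.89 and 3.56 after CRH and 4.95, 5.04, 4.79 and 5.37 after IL-6, a difference of -1.11 ± 0.196 (SE). Vps33b, a gene of endosome and granule traffic, was 3.08, 2.72, 2.72 and 2.70 after CRH and 4.55, 3.77, 4.08 and 3.63 after IL-6 (-1.20 ± 0.224). Rabgap1, which encodes a GTPase-activating protein for Rab proteins, had a difference of -1.58. The stress pathway gene Map3k12, a kinase upstream of JNK, was 3.53, 1.99, 3.25 and 2.04 after CRH and 3.75, 4.95, 5.32 and 4.63 after IL-6 (-1.96 ± 0.462). Ppp1r15b, which directs a phosphatase to the initiation factor eIF2, was 3.25, 2.84, 2.55 and 2.76 after CRH and 3.57, 4.02, 3.69 and 4.48 after IL-6 (-1.09 ± 0.243). Of the 24 genes, 23 had groups without overlap, the exception being Rnf34, a ubiquitin ligase gene. With its probe sets averaged Map3k12 was at -0.98, and without CRH arrays 3 and 4 Rabgap1 was at -0.99. The difference kept its sign for all 24 in the alternatives tried, in which the smallest adjusted p of any of them in limma was 0.463. For the 23 without overlap, leaving out arrays cannot turn the sign. The kept sign thus follows largely from the choice of these genes and is no support for their differences. The largest difference at any level on this side was that of Krtap1-3, a hair keratin-associated gene, at -2.68 ± 0.939 (SE). It was bright on IL-6 arrays 2 to 4 (6.85, 5.01 and 5.21) but 1.73 on IL-6 array 1, within the 1.67 to 2.41 of the CRH arrays.

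**Figure D2:**
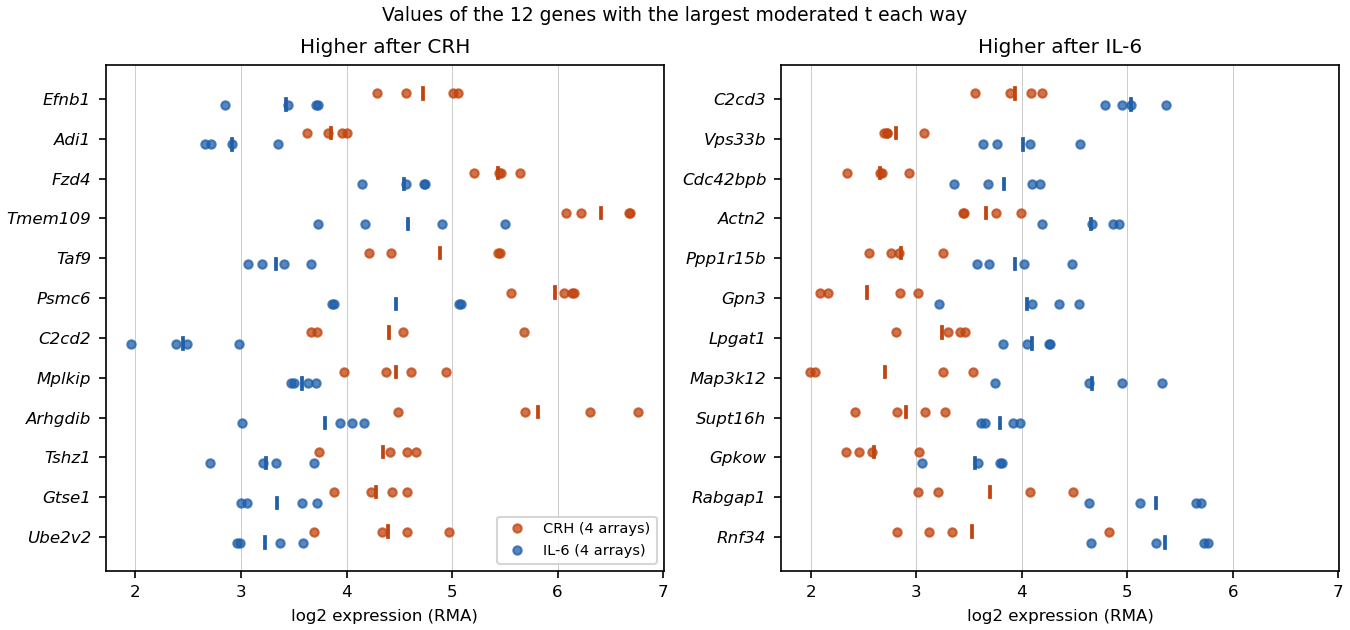
Log2 expression (x axis) on each of the 8 arrays for the first 12 genes on each side by moderated t among those with a mean of 3 or more, CRH arrays in orange and IL-6 arrays in blue, with a vertical bar at each mean of 4. The groups meet only for Rnf34, where CRH array 1 (4.82) lies above IL-6 array 3 (4.65).

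The STAT element TTCNNNGAA was present, on either strand, in the 300-base window (250 bases before to 50 after the start) of 22 of 221 genes (9.95%) higher after CRH at an unadjusted p under 0.05, 16 of 195 (8.21%) higher after IL-6 and 942 of all 11724 genes with a promoter (8.03%). The cAMP response element TGACGTCA was in 9 (4.07%), 6 (3.08%) and 278 (2.37%), and AAAGGTCA in 3 (1.36%), 1 (0.513%) and 124 (1.06%). The shares of all 3 motifs were higher on the CRH side than on the IL-6 side, the STAT element's included, on small counts, and these differences were not tested. Among the 10 of the 12 named genes each way that had a promoter, 3 on the CRH side and 2 on the IL-6 side held the STAT element. One of each side is printed with the match in capitals, again as the 250 bases before the start (RefSeq, GRCr8), Psmc6 at chr15:21022064-21022313 and C2cd3 at chr1:164127444-164127693, both on the plus strand.
Psmc6: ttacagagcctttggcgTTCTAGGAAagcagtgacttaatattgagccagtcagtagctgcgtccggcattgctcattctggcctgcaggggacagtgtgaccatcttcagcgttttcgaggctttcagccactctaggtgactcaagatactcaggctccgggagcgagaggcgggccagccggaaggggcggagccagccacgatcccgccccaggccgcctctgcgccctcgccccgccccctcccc
C2cd3: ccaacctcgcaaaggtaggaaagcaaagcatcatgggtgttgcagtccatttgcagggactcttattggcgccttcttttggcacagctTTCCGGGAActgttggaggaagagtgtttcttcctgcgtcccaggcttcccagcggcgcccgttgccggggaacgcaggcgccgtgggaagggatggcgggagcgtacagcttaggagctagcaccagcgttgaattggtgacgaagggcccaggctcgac
Counted from the gene start, the element lies at -233 in Psmc6, whose mean was higher after CRH, and at -161 in C2cd3, whose mean was higher after IL-6. A match describes the letters of the window and is not a bound site.

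Across the 25 gene lists, 565 of 809 listed genes were measured. At an unadjusted p under 0.05 there were 9 (1.59%) higher after CRH and 13 (2.30%) higher after IL-6, beside 1.87% and 1.68% of all genes, and 6 and 7 had groups without overlap, beside 1.33% and 0.989% of all genes. These shares are near those over all genes. The list medians ran from -0.18 for glycolysis and hypoxia to 0.16 for mitochondrial ribosomal proteins. For 20 of the 25 lists the median took the other sign in at least 1 alternative. The 5 that kept theirs were the CRH and cAMP-responsive genes, cytosolic ribosomal proteins, p53 targets and apoptosis and antioxidant enzymes on the CRH side, and glycolysis and hypoxia on the IL-6 side.

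**Figure D3:**
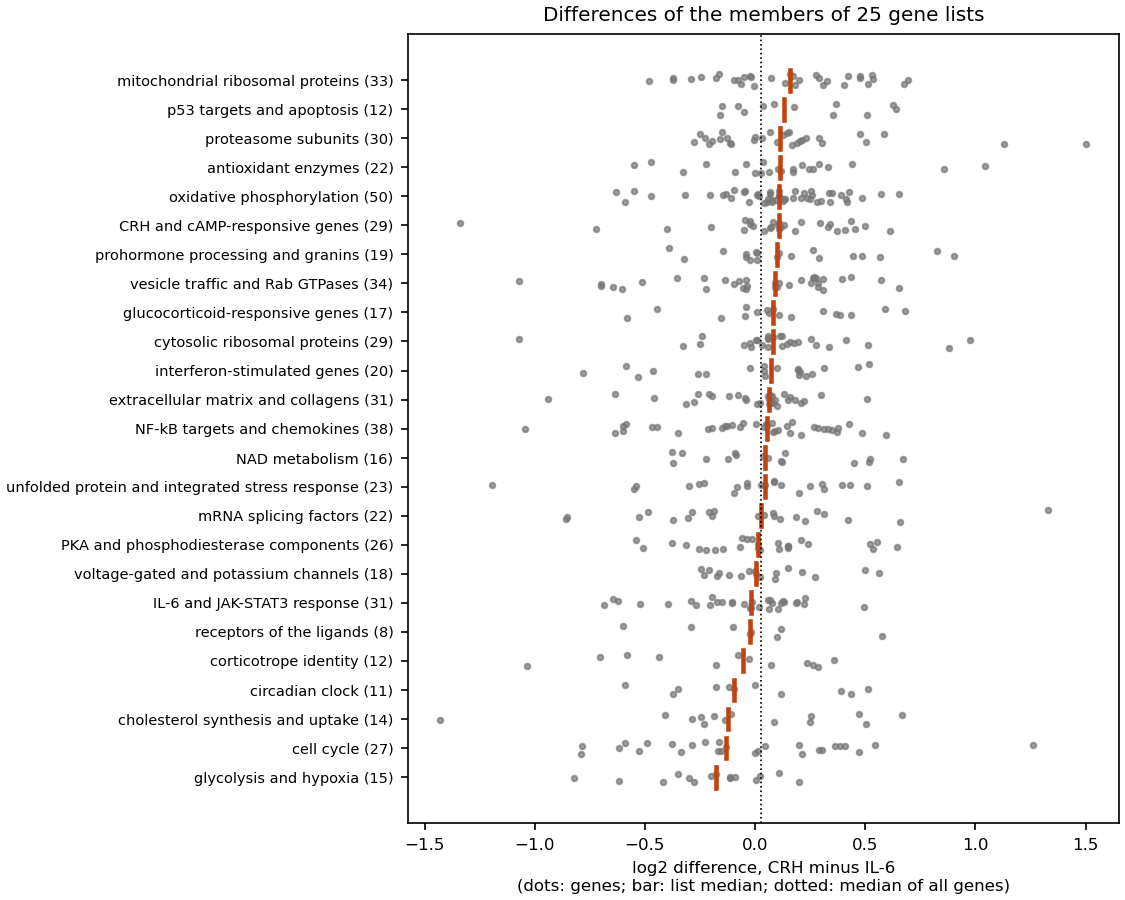
Log2 differences, CRH minus IL-6 (x axis), of the measured members of 25 gene lists (number of members in brackets). Dots are genes, orange bars are list medians, and the dotted line is the median of all 14557 genes (0.03). Medians lie between -0.18 and 0.16, and the dots of every list fall on both sides of 0.

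Counts of members higher after CRH are read here against the 54.9% of all genes that were. Counts at an unadjusted p under 0.05, here and below, are read against 1.87% (CRH higher) and 1.68% (IL-6 higher) of all genes. Of 50 measured oxidative phosphorylation genes 37 had higher means after CRH, with a median difference of 0.11 and 0 members at an unadjusted p under 0.05. Uqcrc2, a core subunit of complex III, was at 0.57 and Ndufv1, a subunit of complex I, at -0.59, the largest moderated t each way. Leaving out 1 array in turn moved this median between -0.08 and 0.31. Mitochondrial ribosomal protein genes were split 19 to 14, near the share over all genes, with a median of 0.16 that ran from -0.05 to 0.33 in the same way, with Mrps34 at 0.68 ± 0.177 (SE) and without overlap. Cytosolic ribosomal protein genes were higher after CRH in 22 of 29, with a median of 0.08. Rps3 was 9.52, 8.81, 8.81 and 9.08 after CRH and 7.88, 8.22, 8.68 and 7.54 after IL-6, without overlap. Rps16 had the opposite sign at -1.07, but 0.17 when its probe sets were averaged, so that its probe sets disagree.

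These lists varied more between arrays of a group than between the groups. The mean level of the oxidative phosphorylation genes was 6.79, 6.89, 5.89 and 6.36 on CRH arrays 1 to 4 and 6.49, 5.85, 6.60 and 6.62 on IL-6 arrays 1 to 4. CRH array 3 and IL-6 array 2 were low together, as they were for mitochondrial ribosomal proteins (3.69 and 3.83, the other arrays 4.30 to 4.82) and for proteasome subunits (5.80 and 6.06, the others 6.34 to 6.86). Over all genes the deviations of these 2 arrays from their group means had a correlation of 0.20, the highest of the 16 pairs of a CRH and an IL-6 array. Without CRH arrays 3 and 4 the median difference of oxidative phosphorylation was 0.49, that of mitochondrial ribosomal proteins 0.56 and that of proteasome subunits 0.39. The cause of these shifts was not tested.

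**Figure D4:**
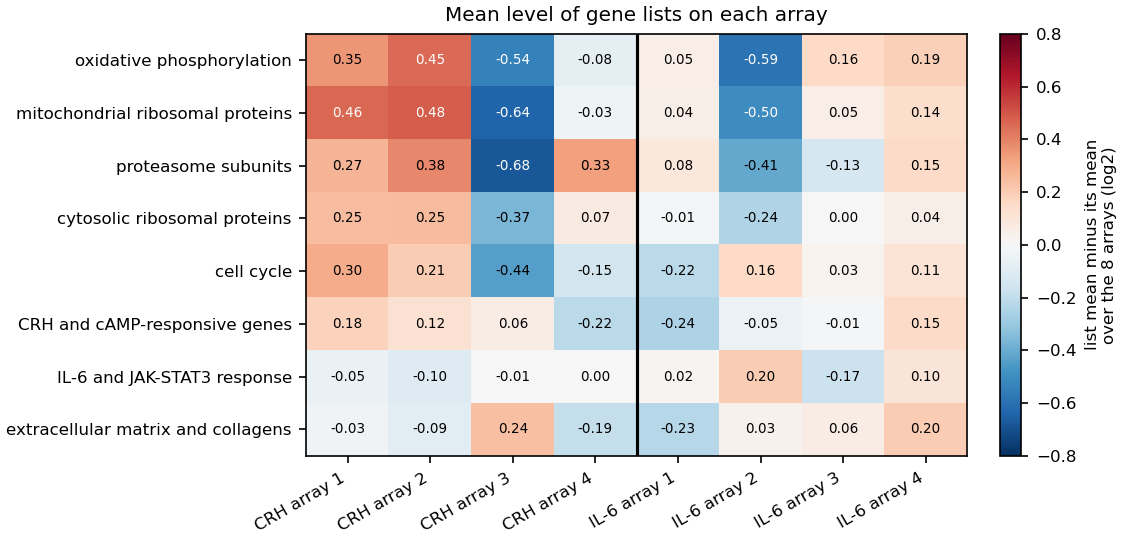
Mean log2 level of 8 gene lists on each array, minus the mean of the list over the 8 arrays, with the vertical line between the CRH and IL-6 arrays. Oxidative phosphorylation is at 0.35, 0.45, -0.54 and -0.08 on the CRH arrays and at 0.05, -0.59, 0.16 and 0.19 on the IL-6 arrays, so CRH array 3 and IL-6 array 2 stand out in the same direction.

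Lists of secretion and stress held single genes that leaned one way. Prohormone processing and granin genes were higher after CRH in 13 of 19, with a median of 0.10 and 0 members at an unadjusted p under 0.05. Among genes of the unfolded protein response and the integrated stress response, 13 of 23 were higher after CRH, with a median of 0.04. Its 1 member at an unadjusted p under 0.05 was Hyou1, a chaperone gene of the endoplasmic reticulum, at 2.57, 2.14, 2.37 and 1.94 after CRH and 2.50, 3.42, 3.49 and 4.40 after IL-6 (-1.20 ± 0.37 SE). IL-6 array 1 lay among the CRH arrays. Vesicle traffic and Rab genes were split 18 to 16, with the Rab10 gene of exocytic traffic at -0.65.

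Among inflammatory genes, targets of NF-kB and chemokines were higher after CRH in 22 of 38 (median 0.05). At an unadjusted p under 0.05, which 1.87% and 1.68% of all genes reached, 2 members were higher after CRH and 1 after IL-6. These included the chemokine gene Cxcl6 at 0.42, on levels of 1.92 to 2.05 and 1.37 to 1.71 that are near the array medians, and the metalloproteinase gene Mmp9 at -0.64. The remaining one, named after its value was seen, was the growth factor gene Csf2 at 0.38. Interferon-stimulated genes were higher after CRH in 13 of 20. Tap1, the peptide transporter gene of antigen presentation, was 3.16, 2.33, 2.02 and 3.05 after CRH and 3.26, 3.36, 3.53 and 3.53 after IL-6. Its groups did not overlap, with a difference of -0.78 ± 0.271 (SE).

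Splicing factor genes were split 12 to 10, near the 54.9% of all genes. At an unadjusted p under 0.05 there were 1 member higher after CRH and 3 higher after IL-6 of 22, beside 1.87% and 1.68% of all genes. Srsf6, a serine- and arginine-rich splicing factor gene, was 5.35, 5.94, 6.06 and 6.90 after CRH and 5.27, 4.26, 4.85 and 4.55 after IL-6 (1.33 ± 0.348 SE). Clk4, a kinase gene whose product phosphorylates such factors, was 4.73, 5.01, 4.06 and 5.07 after CRH and 4.91, 5.59, 5.89 and 5.91 after IL-6 (-0.86 ± 0.303). Srsf6 was without overlap, and Clk4 overlapped through IL-6 array 1. The other splicing genes on the IL-6 side were Srsf5 at -0.48 and Hnrnpu at -0.53, named after their values were seen.

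Cell cycle genes were higher after CRH in 12 of 27 (median -0.13). Rrm2, a ribonucleotide reductase subunit gene, was at 1.26 ± 0.488 (SE). The spindle checkpoint gene Bub1b was at -0.62 ± 0.209, on dim levels of 1.57 to 1.84 after CRH and 1.82 to 2.77 after IL-6. Its groups overlapped, and its CRH levels lay below the array medians. The difference of Rrm2 was 0.84 without IL-6 array 1, on which it was 1.94. In cholesterol synthesis, higher after CRH in 6 of 14, the late-step desaturase gene Sc5d was at -1.43 ± 0.579 and the phosphomevalonate kinase gene Pmvk at 0.67 ± 0.264. Without CRH arrays 3 and 4 Sc5d was at -0.56. Of the glycolysis and hypoxia genes 4 of 15 were higher after CRH, with 0 members at an unadjusted p under 0.05.

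Antioxidant enzymes were higher after CRH in 15 of 22, with the glutathione transferase gene Gsta4 at 0.86 ± 0.297 (SE) and without overlap. Gsta4 was 2.39 to 3.44 after CRH and 1.69 to 2.26 after IL-6, the latter near the array medians. Extracellular matrix genes were split 19 to 12, with the basement membrane collagen gene Col4a1 at -0.46 ± 0.135 and also without overlap. Glucocorticoid-responsive genes were higher after CRH in 12 of 17, p53 targets in 8 of 12, NAD metabolism in 9 of 16 and clock genes in 5 of 11. Corticotrope identity genes were higher after CRH in 5 of 12, protein kinase A and phosphodiesterase genes in 14 of 26 and ion channels in 10 of 18. The glucocorticoid receptor gene Nr3c1 was at -0.58 ± 0.373 and the imprinted cell cycle inhibitor gene Cdkn1c at 0.68 ± 0.402, the latter through CRH array 4 alone (0.24 without it). Of a list of receptor genes that was not limited to the receptors of CRH and IL-6, 3 of 8 were higher after CRH. In that list the endotoxin receptor gene Tlr4 was at 0.58 ± 0.388. Tlr4 was 3.604 on CRH array 2 against 1.784 to 2.201 on the other CRH arrays, and its difference was 0.17 without that array.

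Markers of other cell types showed no clear separation of the ligands, but equal cell composition is not shown. For 10 of the 11 marker lists 0 members had an unadjusted p under 0.05, beside 1.87% and 1.68% of all genes. The folliculostellate and stem cell list had 1 of 10, the stem cell factor gene Sox2 at -0.64, named after its value was seen. The interval lay within 2-fold for 3 of 10 folliculostellate and stem cell markers, 10 of 16 leukocyte markers and all 9 endothelial markers, which are dim. The log2 of the summed level of fibroblast and mural markers was 10.84 to 11.11 after CRH and 10.82 to 11.02 after IL-6, and that of lactotrope markers 10.86 to 11.08 and 10.23 to 10.98. Leukocyte markers reached 6.28 to 7.57 after CRH and 6.56 to 6.85 after IL-6, endothelial markers 4.86 to 5.15 and 4.85 to 5.03. Tagln, at 10.3 ± 0.0891 (SD) after CRH and 10.3 ± 0.105 after IL-6, differed by 0.01 with an interval from -0.29 to 0.31.

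How large a difference these arrays could show depended on the level of the gene. The 95% interval had a median half-width of 0.41 for the 6108 genes with a mean under 2, where little signal is expected over background, and of 1.07 for the 1351 genes between 4 and 5. It narrowed to 0.55 for the 162 genes at 8 or more. Among the 5207 genes with a mean of 3 or more, the interval lay within 2-fold in both directions for 1460 (28.0%), Pomc, Scg2, Egr1 and Stat3 among them. For the other genes at this level the interval reached past 2-fold on at least 1 side with 4 arrays per group. At an unadjusted p under 0.05 there were 302 of the 5207 (5.80%).

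**Figure D5:**
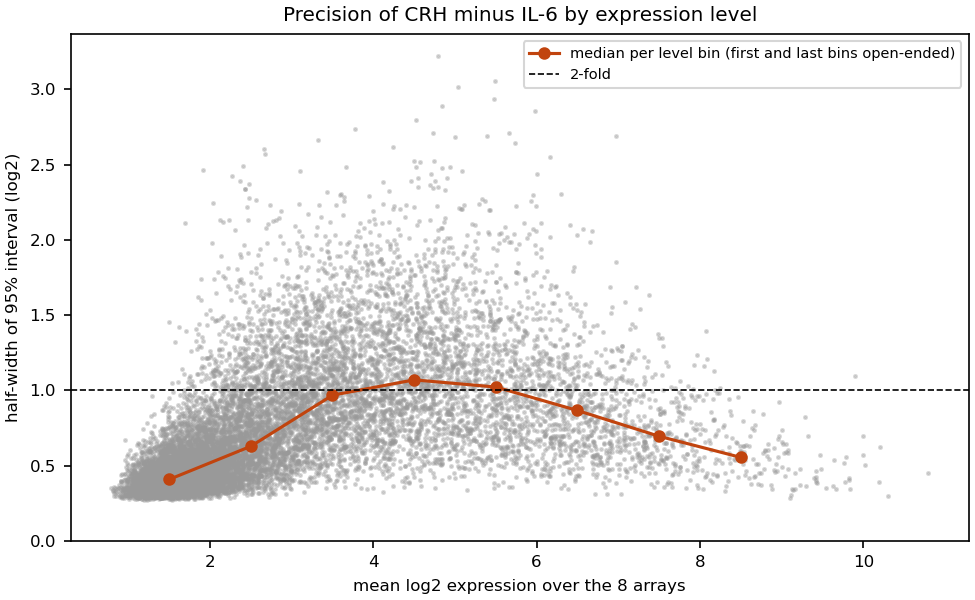
Half-width of the 95% interval of the difference (y axis, log2) against the mean log2 level over the 8 arrays (x axis) for 14557 genes, in grey, with the median per level bin in orange. The median rises from 0.41 below a level of 2 to 1.07 between 4 and 5, above the dashed 2-fold line, and falls to 0.55 at 8 or more.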

How the data were processed

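The authors deposited log2 values per probe set for 16 Affymetrix arrays, and per the submitters' processing notes RMA produced them. Which RMA version, summary level and genome build were used is not given in the sources used here. Per the labels' protocols, 5 ng of total RNA per array was amplified with a Pico kit. The growth protocol names an antibody against CRHR1 for the beads, and the series' design text one against CRH. Symbols came from the platform annotation and were updated through Entrez identifiers for 14670 of 14824 single-symbol probe sets; probe sets with several symbols (829) or none (21032) entered 1 alternative only. For 234 genes the brightest of several probe sets was used.

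Differences were fitted with limma 3.58.1 in R 4.3.3 on the 8 arrays (1 mean per group, empirical Bayes without trend, not robust, two-sided, Benjamini-Hochberg over 14557 genes), with 6 residual and 2.24 prior degrees of freedom, and the fit was tested on simulated data. Intervals are limma's 95% intervals, and the number of arrays limits their precision. Array 1 to 4 is the number in the sample title. The named genes were those chosen by the rule: the first 12 on each side by moderated t at a mean of 3 or more (predicted loci, small RNA and chemosensory receptor genes left out), the extreme t on each side of each list, 12 set pathway genes (8 measured), the brightest marker of each marker list, and the 2 largest differences on each side. Further genes, most of them of the pathways, were added after their values were seen. Alternatives were other array sets, a replicate block, normalization, variance settings, array weights, level filter, probe set choice and left-out arrays. The other array sets were the 12 ligand arrays, with the eNampt arrays added, and all 16 arrays, with the control arrays added as well. Leaving out CRH arrays 3 and 4 was added after seeing the data. The members and lists were chosen with earlier results of these data known. Deviations of same-numbered arrays had correlations of 0.06, -0.12, -0.02 and -0.01, and numbers were not treated as pairs in the main fit. Such correlations cannot tell whether these arrays share a culture or preparation.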

Additional observations from a re-analysis of the deposited data

Results flagged for a closer look

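For single genes, 1 array lay far from the other 3 of its group in 12 of 190 groups examined, where chance gives about 1 in 20. Among genes of the corticotrope and pituitary axis, Nr4a1 was 3.39 on IL-6 array 1 against 5.21 to 5.52 on the others, Tbx19 was 1.61 on CRH array 4 against 1.50 to 1.51, Gh1 was 5.19 on IL-6 array 2 against 5.78 to 5.83, and Tshb, the thyrotropin beta gene, was 3.65 on CRH array 2 against 1.25 to 1.66. Psmc6 was 5.56 on CRH array 3 against 6.06 to 6.15 and Vps33b was 3.08 on CRH array 1 against 2.70 to 2.72. Mmp9 was 2.75 on CRH array 3 against 3.39 to 3.51 and Mmp14, a membrane metalloproteinase gene, was 6.65 on CRH array 1 against 7.31 to 7.39. The co-chaperone gene Dnajc3 was 5.69 on CRH array 2 against 6.24 to 6.34, and Cdkn1c was 4.50 on CRH array 4 against 2.60 to 2.84. Nmrk2, a nicotinamide riboside kinase gene, was 2.30 on IL-6 array 1 against 1.58 to 1.70, and the potassium channel gene Kcnj2 was 2.01 on IL-6 array 2 against 1.45 to 1.54.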

How the results depend on the processing

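No gene passed an adjusted p under 0.05 in limma under any of the alternatives tried. The smallest adjusted p among them was 0.0733 in limma, without CRH arrays 3 and 4 (an alternative chosen after seeing the data). The planned fit with all 16 arrays came close to it, with a smallest adjusted p in limma of 0.0742, for Csrnp1, and 2 genes under 0.10. The number of genes higher after CRH at an unadjusted p under 0.05 was 132 when genes under the median of all values were left out, 718 when every probe set was tested and 526 without CRH arrays 3 and 4. For IL-6 it was 669 with every probe set, and 369 and 440 without CRH array 1 and IL-6 array 1. With 1 array left out in turn the counts ran from 195 to 407 for CRH and from 211 to 440 for IL-6. In the fit with a replicate block 263 genes for CRH and 256 for IL-6 had an unadjusted p under 0.05. The smallest adjusted p of that fit in limma was 0.9998. In deviations from group means, 1 of 8 arrays correlated best with its own number. This cannot tell whether same-numbered arrays share a culture or preparation, which the sources used here do not state.

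Of 109 named genes, 86 kept the sign of their difference, among them the 24 chosen for the largest moderated t. Averaging probe sets gave 0.17 for Rps16. Without CRH arrays 3 and 4 the differences were -0.23 for Eno2, 0.13 for Aen, -0.28 for Stat3, 0.65 for Nr4a1, 0.15 for Gh1, 0.60 for Cga, 0.048 for Fos and 0.031 for Scg2. Array quality weights gave -0.0034 for Stat3, -0.037 for Pcsk2, 0.072 for Cga and 0.0065 for Scg2, and repeated quantile normalization gave -0.029 for Lcn2 and 0.0065 for Fos. Leaving out 1 array in turn gave both signs for Psmd7 (-0.39 to 0.022), Eno2 (-0.19 to 0.39), Aen (-0.38 to 0.12), Tbx19 (-0.16 to 0.061), Stat3 (-0.050 to 0.35), Nr4a1 (-0.53 to 0.75), Lcn2 (-0.15 to 0.36), Pcsk2 (-0.27 to 0.24), Gh1 (-0.34 to 0.33), Cga (-0.45 to 0.16), Lhb (-0.051 to 0.29), S100b (-0.50 to 0.23), Ptprc (-0.095 to 0.050), Cdh1 (-0.53 to 0.10), Tagln (-0.023 to 0.061), Cd74 (-0.45 to 0.79), Slc4a1 (-0.23 to 0.013), Fos (-0.23 to 0.14), Osmr (-0.33 to 0.80), Hp (-1.04 to 0.32), Scg2 (-0.10 to 0.055), Neurod1 (-0.079 to 0.026). The cause of these changes was not tested.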
